A study of Mus musculus with 3 samples.

Results

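The comparison described here sets mouse pancreatic tumour cells recovered from immunodeficient hosts against the same cells kept in culture. It covers every gene of the authors' deposited table: all 17910 RefSeq transcripts carry a value for SCID tumours against the cell line, and averaging them by gene symbol gave 11886 genes, the same 11886 that the table gives for wild-type tumours. The line, mT3-2D-GFP, was derived from a KPC tumour of C57BL/6 background and carries green fluorescent protein (GFP). KPC names a genetically engineered mouse model in which tumour driver alleles are switched on in the pancreas by Cre recombinase under the Pdx1 promoter. In the cell line group these cells grew in DMEM with 10% heat-inactivated fetal bovine serum and 2 mM L-glutamine. In the SCID group they were sorted by flow cytometry from tumours grown in B6.CB17-Prkdcscid/SzJ mice, whose Prkdc allele stops the maturation of T and B cells while macrophages, natural killer cells and stroma remain. RNA of 5 such tumours was pooled in equal amounts into 1 library, and the line gave 1 library. The wild-type (WT) group, sorted cells from 6 tumours in C57BL/6 mice, is used below only for values set beside those of the SCID group. Host age and sex, the implantation site and the time of tumour growth are not stated in the labels.

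Cells in a culture dish receive abundant serum, amino acids and oxygen and divide without contact with a tissue. In a pancreatic tumour, malignant epithelial cells lie in a collagen-rich stroma with few open vessels, and hypoxia, scarce nutrients and signals from fibroblasts and immune cells act on them. Sorting cells from a solid tumour needs dissociation of the tissue and time in suspension, steps that are themselves known to induce immediate-early genes. The labels describe sorting for the tumour groups and no such step for the line, so growth in a host and recovery from tissue cannot be told apart in this comparison.

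Each value below is a difference on the deposited log2 scale, SCID tumour cells minus cultured line, so that 1 is 2-fold higher in the tumour cells and -1 is 2-fold lower. A gene with several transcripts has their mean. The table holds differences and no level per library, so a highly and a weakly expressed gene with the same value look alike here and no count stands behind a value. With 1 library on each side there was no replicate and no test, and the spread between the 5 tumours was not measured. A gene is called higher or lower here when its value reached 2-fold.

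Most genes lay close to 0. The median was -0.02, the 25th and 75th percentiles were -0.30 and 0.28 and the 5th and 95th percentiles were -0.77 and 0.88. In the tumour cells 434 genes (3.65%) were higher and 312 (2.62%) were lower, 6.28% in either direction, and these shares are the background for the counts of each gene group. At 4-fold 16 genes were higher and 4 lower. The highest gene was Col1a1, a chain of type I collagen, at 2.61 (6.11-fold), and the lowest was S100a7a, a calcium-binding protein of stressed epithelia, at -2.49 (5.63-fold lower). Beside the groups described below, the highest genes included Olr1, a receptor for oxidised lipoprotein, at 2.05, Klf12, a zinc finger repressor, at 1.98, Adgra2, an adhesion receptor known from brain vessels, at 1.94, Apobr, a lipoprotein receptor, at 1.91 and Ndst3, a heparan sulfate sulfotransferase, at 1.90. The lowest included Tmigd1, an adhesion molecule of absorptive epithelia, at -2.14, Mettl7b at -2.06, Apoc2, the cofactor of lipoprotein lipase, at -1.94, Palm3 at -1.86, Cdhr2, a cadherin of the intestinal brush border, at -1.83 and Serpinb9b, a protease inhibitor, at -1.82. The ranked plot shows these genes at the ends of an otherwise smooth curve.

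**Figure D1:**
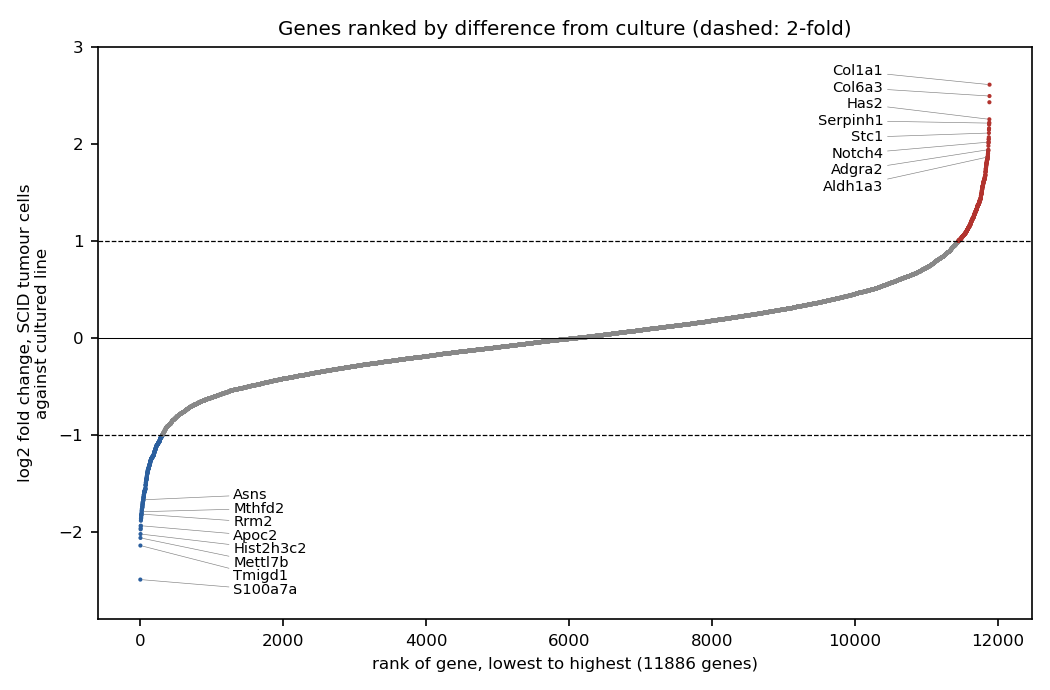
Each point is 1 of 11886 genes, placed by rank on the horizontal axis and by its log2 fold change, SCID tumour cells against cultured line, on the vertical axis. Red points are the 434 genes 2-fold or more higher and blue points the 312 genes 2-fold or more lower, with the dashed lines at 1 and -1; the ends are Col1a1 at 2.61 and S100a7a at -2.49.

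The labelled cell type was checked on 15 ductal and tumour epithelial markers, of which 14 had a value. Of these 6 were above 0 and 8 below, with a median of -0.24. Sox9 at 1.28, Epcam, the epithelial adhesion molecule, at 1.25 and Cldn4 at 1.01 were higher, and the keratins Krt7 at -1.18 and Krt19 at -1.01 were lower. Markers of host cells were few in the table. Of 26 macrophage markers 4 had a value (Apoe 1.02, Cd68 0.99, Cd14 0.41, Mrc1 -0.06), of 23 fibroblast markers 4 (Col1a1 2.61, Has1 1.61, Ly6c1 0.63, Fbln1 -0.05) and of 18 endothelial markers 5 (Flt1 1.63, Plvap 1.22, Eng 1.12, Kdr 0.80, Ly6a 0.36). Of 10 pan-leukocyte markers only Cd53, a tetraspanin of white blood cells, had a value, 1.42. No gene of the neutrophil, B cell, pericyte and islet lists had one. The T cell list held 2 values (Tcf7 0.36, Foxp3 0.10), the NK list 1 (Eomes -0.61), the dendritic cell list 1 (Zbtb46 0.59), the acinar list 2 (Cela1 0.90, Bhlha15 0.59) and the erythroid and platelet list 1 (Itga2b 0.77). The adipocyte pair Pparg and Cidec, Mbp of the Schwann cell list and all 4 mesothelial markers were below 0. The rule by which rows entered the table is not given in the sources used here, so a missing marker does not show that its RNA was absent. The part of host cells in the values below was not tested, and in pooled sorted cells more host cells and more RNA per tumour cell cannot be told apart.

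The lowest median of the gene lists was that of the replication-dependent histone genes, the clustered genes that supply histones during S phase. Of 67 measured, 64 were lower in the tumour cells, against 2.62% of all genes, and the median was -1.60. All 5 genes of linker histone H1, all 18 of H2A, all 12 of H3 and all 13 of H4 were lower, with medians of -1.76, -1.54, -1.75 and -1.60. Of the 19 H2B genes 16 were lower, at a median of -1.56. Hist2h3c2, at -2.02 (4.06-fold), was the lowest, followed by Hist2h3c1 at -1.97, Hist1h3g at -1.96 and the H1 gene Hist1h1d at -1.94. Hist2h3c1 and Hist2h3c2 are recorded at the same 2 loci, and many histone genes are near-identical copies between which reads may be shared, so the 67 values are not independent. The mRNAs of these genes normally end in a stem-loop and lack the poly(A) tail on which the libraries were selected.

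The exceptions were 3 H2B genes, Hist2h2be at 0.12, Hist1h2bc at -0.17 and Hist1h2be at -0.78. In the last 2 the transcripts differed by length. The short Hist1h2bc transcript (NM_001290380, chromosome 13 from 23684199 to 23684667) was at -1.35, near its neighbours, whereas the long transcript from the same start (NM_023422, to 23692480) was at 1.01. For Hist1h2be the short transcript (NM_001290530, chromosome 13 from 23585526 to 23585970) was at -1.53 and the long transcripts were at -0.68 and -0.11. Of 9 measured histone variant genes outside the clustered family 2 were lower, and the median was -0.14. H3f3b and H3f3a, which encode the replacement histone H3.3, were at 0.29 and -0.08 and H2afz, the gene of the H2A.Z variant, at -0.28. The 2 lower variants were H2afx, the substrate of the DNA damage kinases, at -1.27 and Cenpa, the centromeric H3, which was 2.01-fold lower. Cenpa is also in the mitosis list and lay inside 2-fold when the values were centred on the median gene (-0.99).

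Genes of mitosis lay below 0 nearly throughout. Of 62 measured, 44 were lower, none was higher and the median was -1.12; Pttg1, the securin gene, at 0.25, was the only member above 0. The lowest were Mybl2, a transcription factor of the cell cycle, at -1.68, Ube2c, the ubiquitin-conjugating enzyme of the anaphase-promoting complex, at -1.62, Aurkb, the kinase of the chromosomal passenger complex, at -1.60, Cdca3 at -1.57 and cyclin B1 (Ccnb1) at -1.52. The mitotic kinases Plk1, Cdk1 and Aurka were at -1.43, -1.32 and -1.29, the motor genes Kif4 and Kif11 at -1.32 and -1.33, and Mki67, which encodes the Ki-67 antigen, at -1.33. The condensin subunit Smc2, at -0.50, lay closest to 0 among the members below it.

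Promoters of mitotic genes are known for the cell-cycle genes homology region (CHR), a short element bound by the DREAM and MuvB complexes. RefSeq promoter windows, 250 bases before to 50 after a start site (GRCm38.p6), were matched by symbol for 9279 of the 11886 genes (78.1%), and the letters TTTGAA were searched on both strands. They occurred in 36 of 54 mitosis genes (66.7%) and in 14.0% of all genes with a window. Among the genes lower by 2-fold 31.8% held them, and among those higher 15.8%. The lower genes include mitosis genes, so the 31.8% is not separate from the share in the mitosis list. No window matched a replication-dependent histone gene. Of all genes that held the letters, 4.93% were lower by 2-fold, and within the mitosis list the median was -1.12 with the letters and -1.03 without, so the letters were common in the list and the values with and without them were close. The stretches below, 100 bases within the part of the window before the start, show the matched letters in capitals (TTCAAA is the reverse strand) for the 4 lowest mitosis genes that held them there.
Ube2c, chr2:164769829-164769928, forward strand: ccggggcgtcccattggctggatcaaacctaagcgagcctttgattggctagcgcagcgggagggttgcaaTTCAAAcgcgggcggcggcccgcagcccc
Cdc20, chr4:118437344-118437443, reverse strand: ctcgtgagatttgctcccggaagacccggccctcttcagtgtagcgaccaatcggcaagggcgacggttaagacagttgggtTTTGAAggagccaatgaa
Mki67, chr7:135716425-135716524, reverse strand: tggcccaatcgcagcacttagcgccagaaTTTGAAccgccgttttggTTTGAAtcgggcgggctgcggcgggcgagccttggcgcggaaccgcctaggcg
Kif11, chr19:37376282-37376381, forward strand: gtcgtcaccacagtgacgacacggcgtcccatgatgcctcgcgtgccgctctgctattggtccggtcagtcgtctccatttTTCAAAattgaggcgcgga
The capitals begin 29 bases before the start in Ube2c, 18 in Cdc20 and 19 in Kif11, and Mki67 has the letters at 2 places. Ube2c was at -1.62, Cdc20, the activator of the anaphase-promoting complex, at -1.44, and Mki67 and Kif11 were both at -1.33.

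All 57 measured genes of DNA replication and the G1/S transition were below 0. Of these 14 were lower by 2-fold, and the median of -0.82 was nearer 0 than that of the mitosis list. Rrm2, the regulated subunit of ribonucleotide reductase, was at -1.82 (3.52-fold lower), cyclin A2 (Ccna2) at -1.57, the primase subunit Prim1 at -1.35, the checkpoint adaptor Clspn at -1.29 and E2f7, a repressor of the E2F family, at -1.26. The subunits of the MCM helicase did not move as a block: Mcm5 was at -1.25, Mcm3 at -1.19, Mcm2 at -0.97, Mcm4 at -0.59 and Mcm6 at -0.29. Mcm7 had a mean of -0.14 over transcripts on opposite sides of 0, NM_008568 at -1.20 and NM_001356577 at 0.92. Cyclin E2 (Ccne2) at -0.09 and E2f3 at -0.13 lay nearest to 0.

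E2F factors drive this gene group through sites near the start. The letters GCGGGAA, on either strand, occurred in 17 of 44 replication genes with a window (38.6%) and in 10.3% of all genes. The stretches below show them for the 3 lowest list members that held them within 250 bases before the start, with GCGGGAA or its reverse TTCCCGC in capitals.
Prim1, chr10:128015115-128015214, forward strand: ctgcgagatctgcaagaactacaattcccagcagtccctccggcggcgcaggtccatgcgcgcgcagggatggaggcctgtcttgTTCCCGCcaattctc
E2f7, chr10:110745194-110745293, forward strand: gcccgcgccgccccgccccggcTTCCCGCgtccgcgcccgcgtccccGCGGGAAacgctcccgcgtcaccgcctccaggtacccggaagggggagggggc
Cdc6, chr11:98907966-98908065, forward strand: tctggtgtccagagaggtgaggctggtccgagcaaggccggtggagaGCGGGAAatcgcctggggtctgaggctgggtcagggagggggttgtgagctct
E2f7 carries the letters in both orientations, and in Prim1 they begin 15 bases before the start. Cdc6, the loader of the MCM helicase, was at -1.04. Within the list the median was -0.85 with the letters and -0.80 without.

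Homologous recombination and crosslink repair genes followed replication, with 7 of 37 lower and a median of -0.51. The exonuclease Exo1 was at -1.35, Fancd2 at -1.25 and Fanca at -1.21, while Atr, a kinase of replication stress, was at -0.04 and Fancc at 0.23. The E2F letters were in 10 of 27 of their windows (37.0%). Of 10 genes of end joining, the pathway in which the hosts are deficient, 7 were below 0, none reached 2-fold and the median was -0.05; a count of 0 among 10 genes is near the background share. Prkdc, the gene that carries the scid allele in the hosts, was at 0.21 in the tumour cells, Xrcc6 (Ku70) at -0.53 and Trp53bp1 at 0.48. Of 10 inhibitors of cyclin-dependent kinases and pocket proteins, Cdkn1a, which encodes p21, was the only one higher, at 1.29. Cdkn3 at -1.15 and Cdkn2c at -1.01 were lower and returned inside 2-fold once the part of the values that follows GC content and transcript length was subtracted (-0.99 and -0.96), a step called the GC and length trend below, and Cdkn2a, the tumour suppressor locus, was at 0.10.

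Most biosynthetic genes lay below 0, nearly all of them within 2-fold. Of 70 ribosome biogenesis genes 67 were below 0 and none reached 2-fold; the median was -0.52, with Bysl at -0.93, Rrp12 at -0.91 and dyskerin (Dkc1) at -0.90. All 78 mitochondrial ribosomal protein genes were below 0 at a median of -0.48, from Mrpl12 at -0.94 to -0.03. Aminoacyl-tRNA synthetases, which charge tRNAs, had 32 of 37 below 0 and a median of -0.44. The cytosolic enzymes Vars at -0.83 and Mars at -0.79 stood lowest and the mitochondrial leucine enzyme Lars2 highest, at 0.51. The proteasome had 41 of 44 genes below 0 and a median of -0.43; the 3 above 0 were the activator genes Psme1 at 0.24, Psme2 at 0.26 and Psme4 at 0.05. Nuclear transport and pore genes had 40 of 45 below 0 (median -0.42), and the importin Kpna2, at -1.40, was their only member past 2-fold. That share, 2.22%, stood against 6.28% of all genes. Cytosolic ribosomal proteins were nearer 0, with 74 of 83 below it and a median of -0.21, which became -0.02 after the GC and length trend was removed.

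**Figure D2:**
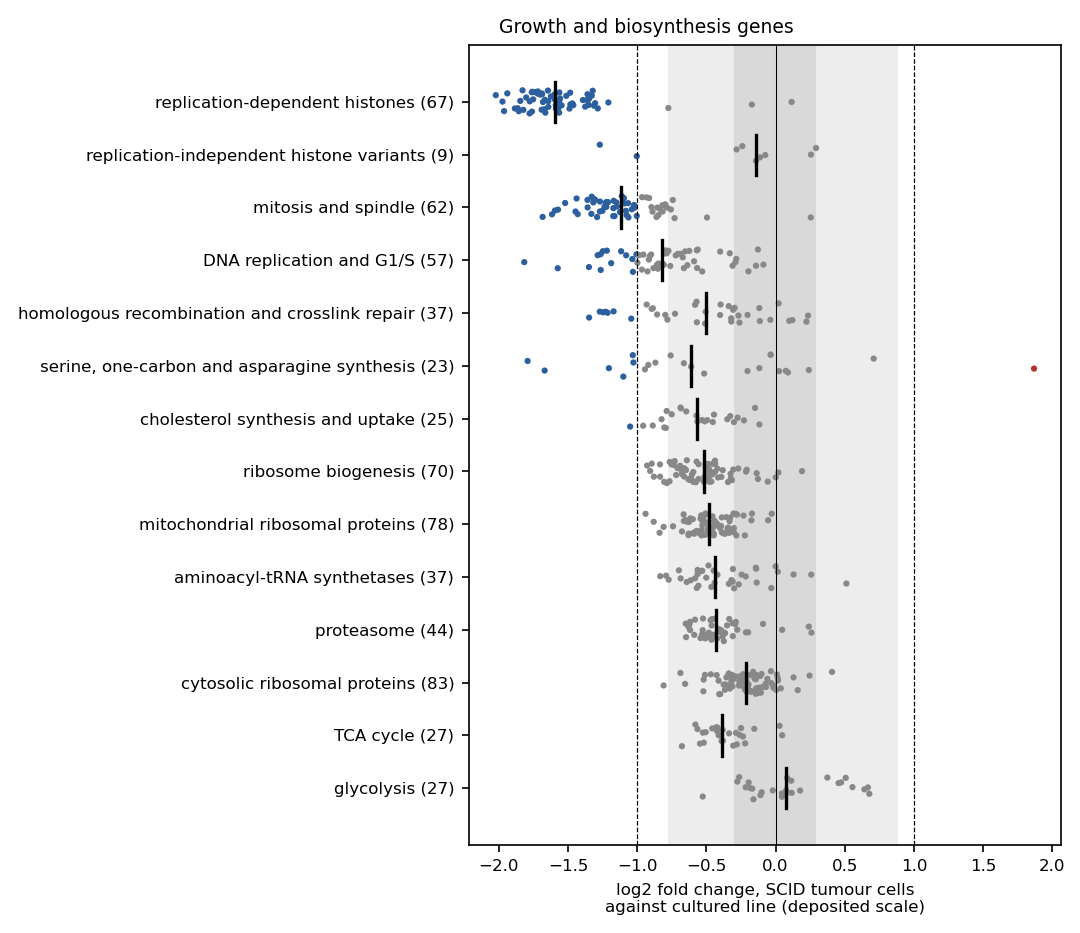
Each point is a gene of the list named at the left (number measured in brackets), placed by its log2 fold change in SCID tumour cells against the cultured line; vertical jitter carries no meaning, the black bar is the list median, blue and red points are past 2-fold, and the grey bands hold the middle 50% and 90% of all genes. The medians of replication-dependent histones (-1.60) and mitosis genes (-1.12) stand left of the dashed line at -1, though some members lie inside it. The medians of ribosome biogenesis (-0.52) and the proteasome (-0.43) lie inside it, and that of glycolysis (0.08) is near 0.

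Enzymes that make serine, glycine, one-carbon units and asparagine were among the lowest metabolic genes. Of 23 measured, 6 were lower and 1 was higher, with a median of -0.61. Mthfd2, the mitochondrial folate dehydrogenase, was at -1.79 (3.46-fold lower), Asns, asparagine synthetase, at -1.67, Psat1 at -1.21, Shmt2 at -1.10 and Gpt2 at -1.03. Phgdh and Psph, the first and last enzymes of serine synthesis, were at -0.92 and -0.94. The single higher gene was Aldh1l1, the cytosolic enzyme that oxidises 10-formyl-tetrahydrofolate, at 1.87 (3.65-fold), while its mitochondrial relative Aldh1l2 was at -0.04. Amino acid carriers lay on both sides of 0, with 8 of 17 above it, 9 below and a median of -0.03. Slc6a9, a glycine carrier, was lower at -1.10, and Slc43a2, a carrier of large neutral amino acids, was higher at 1.25. Slc7a5 was at -0.89, Slc7a1 at -0.87 and Slc1a5 at -0.79, while Slc3a1 was at 0.69.

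Many of these genes are known targets of ATF4, the transcription factor of the integrated stress response. The ATF4 list itself split. Atf3 at 2.22, Ddit4 (REDD1, an inhibitor of mTORC1) at 1.60, Ppp1r15a (GADD34) at 1.33 and Vldlr at 1.21 were higher, and Ddit3 (CHOP) was at 0.97. Below 0 were Chac1, a glutathione-degrading enzyme, at -0.88, Eif4ebp1 at -0.62, Trib3 at -0.56 and Atf4 itself at -0.27. The median over 16 genes was 0.15. The amino acid response element (AARE) bound by ATF4 was searched as TGATGNAA, where N is any base, on both strands. It occurred in 2.60% of all genes with a window, in 6 of 15 genes of the ATF4 list (40%), in 5 of 26 synthetase genes (19.2%) and in 3 of 17 serine and asparagine genes (17.6%). Over these lists and the amino acid carriers, 17 of 71 genes held it (23.9%). Stretches are shown for the 3 lowest and the 2 highest genes that held it before the start, with the matched letters in capitals.
Asns, chr6:7693210-7693309, reverse strand: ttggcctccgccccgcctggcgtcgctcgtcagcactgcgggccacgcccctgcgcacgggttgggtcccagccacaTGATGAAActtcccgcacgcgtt
Chac1, chr2:119351003-119351102, forward strand: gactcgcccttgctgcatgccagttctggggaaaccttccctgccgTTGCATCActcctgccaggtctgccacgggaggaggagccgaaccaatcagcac
Got1, chr19:43524654-43524753, reverse strand: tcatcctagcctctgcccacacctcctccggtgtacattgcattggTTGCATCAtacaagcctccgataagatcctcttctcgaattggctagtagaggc
Vldlr, chr19:27216774-27216873, forward strand: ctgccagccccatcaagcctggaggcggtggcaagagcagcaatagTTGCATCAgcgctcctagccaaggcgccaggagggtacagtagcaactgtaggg
Atf3, chr1:191183390-191183489, reverse strand: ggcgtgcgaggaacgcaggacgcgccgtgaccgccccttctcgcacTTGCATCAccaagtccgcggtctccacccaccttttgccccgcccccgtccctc
The same element thus stood in genes at both ends of the scale. Chac1, Got1, Vldlr and Atf3 hold it in the reverse orientation with identical letters, and their values were -0.88, -0.76, 1.21 and 2.22. Of the 17 genes 13 were below 0, among them the synthetases Aars at -0.69, Gars at -0.61, Iars at -0.58, Yars at -0.57 and Tars at -0.46. Above 0 beside Vldlr and Atf3 were Nupr1 at 0.56 and Slc7a7 at 0.35.

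All 25 genes of cholesterol synthesis and uptake lay below 0, at a median of -0.57, with the prenyl synthase Fdps at -0.89. Acat2, at -1.05, was the only one past 2-fold, and was at -0.98 after the GC and length trend was removed. A count of 1 among 25 genes is near the 6.28% of all genes. The fatty acid synthesis and lipid droplet list had 22 of 30 genes below 0 and 8 above 0, at a median of -0.38. In this list 2 genes were lower by 2-fold, 6.67% against 2.62% of all genes. Scd1, the stearoyl-CoA desaturase, was at -1.65 (3.13-fold lower) and Fads2 at -1.09, while Fasn, fatty acid synthase, was at -0.51 and Lpin2, a phosphatidate phosphatase, at 0.62. Genes of the respiratory chain lay slightly below 0, with 35 of 36 complex I subunits below 0 (median -0.37), 24 of 25 subunits of complexes II to IV (median -0.38) and 15 of 17 of ATP synthase (median -0.27). Removing the GC and length trend brought these medians to -0.14, -0.16 and -0.04. Enzymes of the TCA cycle, with a median of -0.39, stayed at -0.32 after that step. Tfrc, the transferrin receptor for iron uptake, was the only gene of the antioxidant and ferroptosis list past 2-fold, at -1.61. That is 1 of 34 genes (2.94%), against 6.28% of all genes.

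Genes of the hypoxia response lay above 0 in 26 of 28 cases. Of these 8 were higher, against 3.65% of all genes, none was lower and the median was 0.74. Stc1, the hormone stanniocalcin 1, was at 2.11 (4.33-fold), Ddit4 at 1.60, the mitophagy receptor Bnip3 at 1.58, Ndrg1 at 1.39 and carbonic anhydrase 9 (Car9) at 1.29. Vegfa was at 1.05 and the collagen prolyl hydroxylases P4ha1 and P4ha2 at 0.75 and 0.72. Hif1a, whose protein is controlled mainly by degradation, was at 0 within rounding. Glycolysis, usually counted as a branch of the same response, had 0 of 27 genes past 2-fold, a count near the background share, and a median of 0.08. Farthest above 0 were genes that control entry into the pathway or its exit, with Pfkp at 0.68, Pdk2 at 0.67, Pfkfb3 at 0.64, Hk2 at 0.56 and the glucose transporter Slc2a1 at 0.46. Among the enzymes of the later steps Gapdh was at 0.08, Pgk1 at 0.05, Pgam1 at -0.19, Eno1 at -0.53, Pkm at -0.17 and Ldha at -0.16. The Gapdh value is the mean of 2 transcripts on opposite sides of 0, at -0.35 and 0.51.

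The core of the hypoxia response element, ACGTG, occurred in 15 of 18 hypoxia genes with a window (83.3%), in 17 of 26 glycolysis genes (65.4%) and in 29.9% of all genes. It lies within the E-box CACGTG, so a match does not tell the sites apart. Stretches of the 3 highest hypoxia genes that held it before the start are shown with ACGTG, or its reverse CACGT, in capitals; the Bnip3 match is the palindrome that holds both.
Ddit4, chr10:59951906-59952005, reverse strand: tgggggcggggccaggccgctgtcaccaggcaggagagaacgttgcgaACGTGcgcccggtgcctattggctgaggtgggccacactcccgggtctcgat
Bnip3, chr7:138909562-138909661, reverse strand: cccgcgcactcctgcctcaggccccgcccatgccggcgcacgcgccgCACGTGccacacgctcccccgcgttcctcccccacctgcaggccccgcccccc
Car9, chr4:43506926-43507025, forward strand: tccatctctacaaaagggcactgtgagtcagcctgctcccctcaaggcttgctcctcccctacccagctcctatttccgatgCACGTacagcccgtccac
In glycolysis genes the median was 0.05 with the letters and 0.08 without, and in hypoxia genes 0.72 and 0.47. The plot of motif shares sets each list beside all genes. For Hippo-YAP targets the TEAD letters GGAATG were in 10 of 17 windows (58.8%), against 14.2% of all genes, with a median of -0.22 where they were present and 0.52 where they were not.

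**Figure D3:**
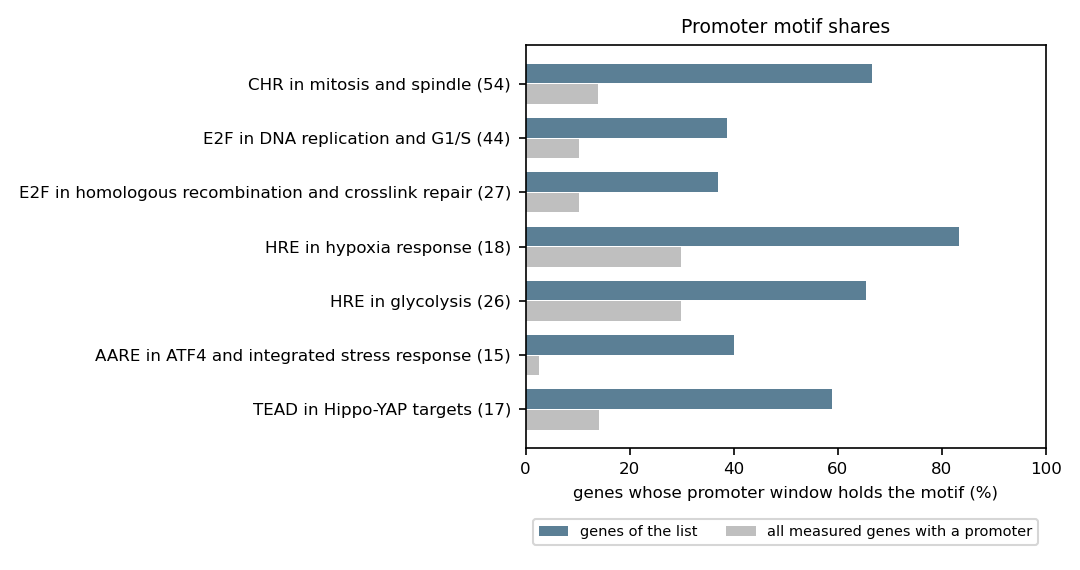
Bars give the percentage of genes whose RefSeq promoter window (250 bases before to 50 after the start) holds the motif on either strand, for the list named at the left (genes with a window in brackets) and for all 9279 measured genes with a window. The CHR stands in 66.7% of mitosis genes against 14.0% of all genes, and the hypoxia element in 83.3% of hypoxia genes against 29.9%.

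Of the gene lists, those of matricellular genes and collagens had the highest medians. Of 16 collagens 10 were higher and the median was 1.17. The fibrillar collagens Col1a1 and Col5a1 were at 2.61 and 2.43, the microfibrillar collagens Col6a3, Col6a1 and Col6a2 at 2.49, 1.80 and 1.22, and Col15a1 at 2.07. Col4a1 and Col4a2, the main collagens of basement membranes, were at -0.30 and -0.36, so the difference was not shared by the whole family. Col7a1, of anchoring fibrils, was at 1.31, and at 0.80 after the GC and length trend was removed, a step that left the collagen median at 0.90. Of the processing enzymes Serpinh1 (HSP47), the collagen chaperone, was at 2.22 and Bmp1, which cleaves procollagen, at 1.35; 17 of the 22 genes lay above 0, and the median was 0.24. Laminins and other basement membrane genes had 2 of 18 higher, led by Lama3 at 1.66, and their median of 0.32 became 0.03 after the GC and length trend was removed.

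Of 21 matricellular and other matrix glycoproteins 12 were higher and the median was 1.21. Tenascin C (Tnc) was at 2.20 (4.59-fold), thrombospondin 1 (Thbs1) at 2.02, Igfbp4 at 1.84, fibronectin (Fn1) at 1.82, versican (Vcan) at 1.62 and Sparc at 1.60. Efemp1, a fibulin, was lower at -1.37. All 3 hyaluronan synthases were higher, Has2 at 2.25, Has1 at 1.61 and Has3 at 1.12, although Has3 was at 0.94 after the GC and length trend was removed. Hmmr, a hyaluronan-binding protein of the mitotic spindle, was at -1.45 and is also in the mitosis list. Matrix proteases and inhibitors had 7 of 36 higher and none lower. The ADAMTS family members Adamts12 at 1.93, Adamts1 at 1.80 and Adamts4 at 1.80 led, then Adamts6 at 1.46 and Mmp19 at 1.42. Integrins and focal adhesion genes were near 0 as a group (median 0.08). Past 2-fold were the fibronectin receptor subunit Itga5 at 1.62 and the adaptor Tns1 at 1.84. That count, 2 of 35, is near the 6.28% of all genes. Contractile genes had a median of 0.04, with Tagln at 1.83, Cald1 at 1.71 and Synpo at 1.25 higher and Flnc lower at -1.05. Many of these genes are also made by fibroblasts. Col1a1 and Has1 belong to the fibroblast marker list, whose other measured members Ly6c1 and Fbln1 were at 0.63 and -0.05. The list median was 1.12 and fell to 0.63 without its farthest member, and the part of fibroblast RNA in the matrix values was not tested.

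**Figure D4:**
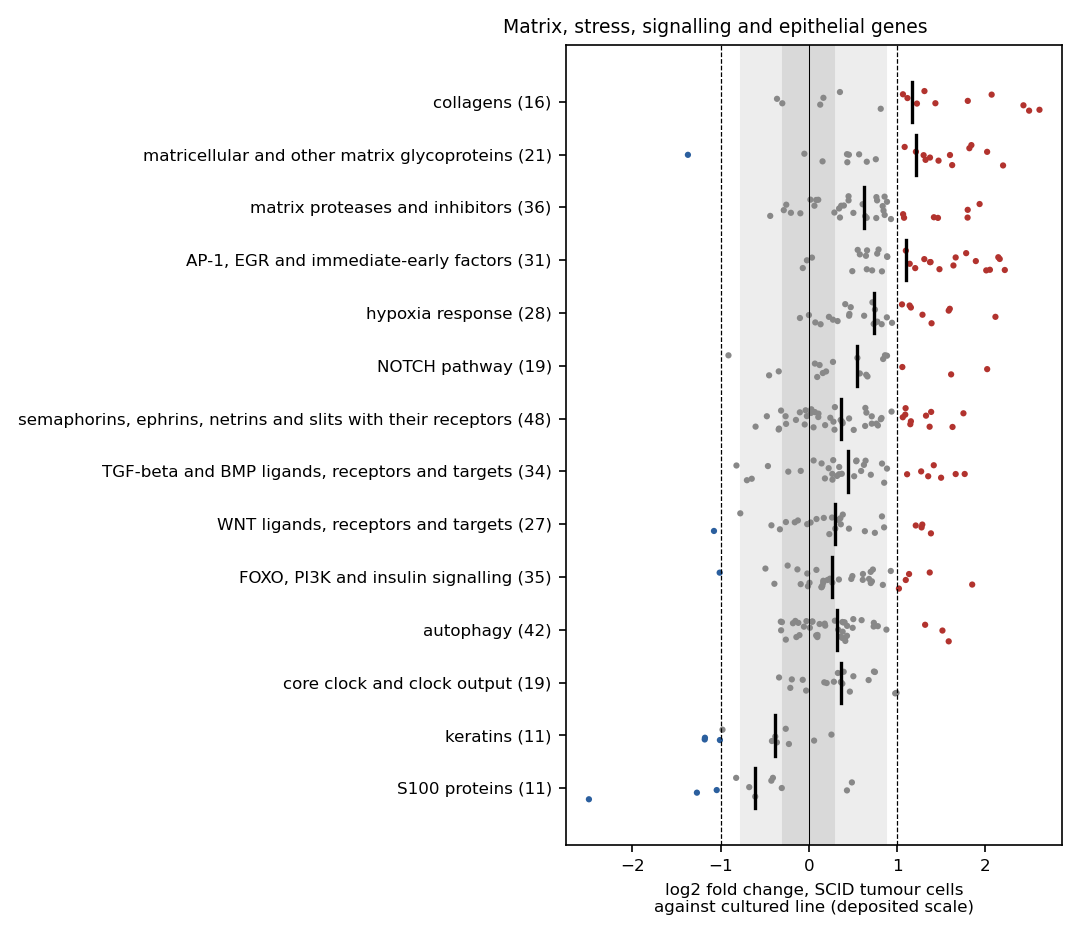
Each point is a gene of the list named at the left (number measured in brackets), placed by its log2 fold change in SCID tumour cells against the cultured line; the black bar is the list median, red and blue points are past 2-fold and the grey bands hold the middle 50% and 90% of all genes. The medians of collagens (1.17), matricellular genes (1.21) and immediate-early genes (1.10) lie to the right, and those of keratins (-0.38) and S100 proteins (-0.61) to the left.

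Immediate-early genes, which respond to growth factors and stress within minutes, were higher in 16 of 31 cases with a median of 1.10. The AP-1 subunits Fosb at 2.15, Fos at 2.05 and Jun at 2.01 led with Atf3 at 2.22, Rgs2 at 2.16 and Egr1 at 1.89, while Junb was at 0.79, Fosl1 at 0.03 and Myc at -0.07. Of 20 feedback and output genes of the ERK pathway 17 were above 0, at a median of 0.46. In this list 3 were higher, against 3.65% of all genes, and none was lower. Dusp1, a phosphatase that is itself an immediate-early gene, was at 1.93, Spred3 at 1.51 and Dusp10 at 1.08. Nearer 0 were the feedback genes Dusp6 and Spry1 at 0.15 and 0.08, and cyclin D1 (Ccnd1) was at -0.48. Of 66 heat shock and DnaJ genes 4 were higher, the inducible Hsp70 genes Hspa1a at 1.67 and Hspa1b at 1.62, which are near-identical copies, and Dnajb9 and Hspa2 at 1.35 and 1.04. None was lower, and the 6.06% of the list that was higher stood against 3.65% of all genes. The constitutive Hspa8 was at -0.27 and the mitochondrial chaperonin Hspd1 at -0.85, and the list median was -0.06. Endoplasmic reticulum stress genes had a median of -0.04, with Hspa5 (BiP) at 0.01. Dissociation and growth in the host cannot be told apart for these groups.

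p53 targets split as well, with 5 of 28 higher and 2 lower. Trp53inp1 at 1.88, Gadd45a at 1.78, Btg2 at 1.66, Cdkn1a at 1.29 and the BH3-only gene Pmaip1 (NOXA) at 1.23 were higher, and Gadd45a and Btg2 are also in the immediate-early list. Tigar at -1.02 and the mitotic gene Gtse1 at -1.24 were lower, the pro-apoptotic gene Bax was at -0.42, and Trp53 itself was at -0.45. The BH3-only gene Bmf was at 1.56 and Birc5 (survivin), a mitotic gene, at -1.27. None of the 18 KPC driver and tumour suppressor genes reached 2-fold, a count near the 6.28% of all genes. Their values ran from Hras at -0.74 to Kdm6a at 0.44, with Smad4 at 0.18.

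Of 24 genes in the list of VEGF, PDGF, FGF and angiopoietin ligands and receptors 7 were higher, none was lower and 6 were below 0 (median 0.69). Csf2, which encodes GM-CSF, was at 1.85 (3.60-fold), Csf1, which encodes M-CSF, at 1.02, Pdgfa at 1.58, placental growth factor (Pgf) at 1.40, Vegfc at 1.31 and Vegfa at 1.05, while Vegfb was at -0.66. The VEGF receptor Flt1 was at 1.63 and Kdr at 0.80, and both are also endothelial markers. The EGF family had 0 of 12 genes past 2-fold, a count near the 6.28% of all genes, and a median of 0.16. TGF-beta and BMP genes had 7 of 34 higher and none lower. These were ligands and their handlers: the activin subunit Inhba at 1.76, the latency proteins Ltbp4 at 1.66 and Ltbp1 (2.82-fold higher), Bmp2 at 1.41, Bmp1 at 1.35, Tgfb3 at 1.27 and Tgfb1 at 1.11. The direct BMP targets Id1, Id2, Id3 and Smad6 were below 0, at -0.70, -0.46, -0.65 and -0.82, and the TGF-beta target Smad7 was at 0.70.

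In the NOTCH pathway the receptor Notch4 was at 2.02 (4.05-fold), the ligand Dll1 at 1.61 and the target Hey1 at 1.06. Notch1 was at 0.09, Hes1 at 0.16 and Jag2 at -0.91, and the list median of 0.55 became 0.34 after the GC and length trend was removed. WNT genes had the receptors Fzd3 at 1.38 and Fzd1 at 1.21, the ligand Wnt4 at 1.28 and the inhibitor Dkk2 at 1.28 higher, and the ligand Wnt7a lower at -1.08; the target Axin2 was at 0.83. Smo, the hedgehog signal transducer, was at 1.23 and Ptch1, a target of the pathway, at 0.12. Of 48 semaphorins, ephrins, netrins, slits and their receptors 10 were higher and none lower. Plexins led with Plxnd1 at 1.75 and Plxnb1 at 1.38, followed by Slit2 at 1.63, Sema7a at 1.37 and Ephb3 at 1.33. Their median of 0.37 was 0.22 after the GC and length trend was removed. Hippo-YAP targets had a median of 0.03, with Igfbp3 at 1.32, Nt5e (CD73) at 1.23 and Ctgf at 1.21 higher and Ankrd1 at -0.52.

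Epithelial genes did not move together. Of 11 keratins 3 were lower, Krt14 and Krt7 at -1.18 and Krt19 at -1.01 (-0.99 when centred on the median gene), and Krt8 and Krt18 were at -0.42 and -0.26. Epcam at 1.25, Cldn4 at 1.01 and the ductal transcription factor Sox9 at 1.28 were higher, while Cldn3 and Cldn7 were at -0.76 and -0.71 and Cdh1, E-cadherin, at -0.36. The list of epithelial-mesenchymal transition factors and mesenchymal genes had 9 of 13 measured members above 0, 4 below and a median of 0.43. It also holds epithelial factors, among them Esrp2 at -0.71, so these counts are not those of mesenchymal genes alone. Tagln at 1.83 and Fn1 at 1.82 were the 2 higher members, and Snai3, at -1.41, was the 1 lower member. Zeb2 was at 0.67, Snai2 at 0.58, Zeb1 at 0.50 and Vim at -0.11. Among endodermal genes Dmbt1, a mucosal scavenger protein, was at 1.74, Muc4 at 1.34, Ctse at 1.21, and Onecut2 was 2.30-fold higher. The intestinal genes Lgals4 and Cdx2 were lower at -1.62 and -1.30, Vil1 was at -0.58 and Pdx1 at -0.64, and Gata6 and Foxa2 were at 0.21 and 0.00. Of 11 symbols in the S100 list, which includes the binding protein S100pbp, 9 were below 0; the median was -0.61, and -0.39 after the GC and length trend was removed. Beside S100a7a, S100a14 was at -1.27 and S100a16 at -1.04, or -0.97 with the median over its transcripts, while S100a4 was at 0.43. Aldh1a3, the retinaldehyde dehydrogenase, was at 1.87 and its relative Aldh1a1 at -0.41. Abcg2, an efflux transporter of stem-like cells, was at -1.72 (3.29-fold lower). It was the only one of 24 ABC transporters past 2-fold, a count near the 6.28% of all genes.

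In the list of FOXO, PI3K and insulin signalling 5 of 35 genes were higher and 1 was lower, with a median of 0.26. Fbxo32 (atrogin-1), a FOXO target, was at 1.85, Trib1 at 1.37, Pik3ip1, an inhibitor of PI3K, at 1.13, Bcl6 at 1.10 and Foxo3 at 1.02, with 27 of 35 genes of that list above 0. Bcl6 and Foxo3 were at 0.83 and 0.91 after the GC and length trend was removed. Deptor, an inhibitor of mTOR, was at -1.01, a call that was lost on centring. In the autophagy list Bnip3 at 1.58, Atg9b at 1.51 and Calcoco1 at 1.32 were higher, 31 of 42 genes were above 0 and the median was 0.31, or 0.17 after the GC and length trend was removed. The conjugation genes Atg5, Atg3 and Atg7 were at -0.32, -0.18 and 0.04. Lysosomal genes had 5 of 50 higher, the cathepsins Ctsh at 1.44, Ctsf at 1.30, Ctso at 1.28 and Ctse at 1.21 and the hexosaminidase Hexa at 1.00, while subunits of the proton pump and its accessory proteins lay between -0.25 and 0.18. Ceruloplasmin (Cp) was at 1.61, transferrin (Trf) at 1.37 and metallothionein Mt2 at 1.37. The lipoprotein receptor Lrp1 was at 1.38, or 0.83 after the GC and length trend was removed.

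Most measured genes of the inflammation lists lay above 0. They were 30 of 40 interleukin and TNF family genes (median 0.28), 22 of 32 interferon genes (0.31) and 8 of 9 chemokine and receptor genes (0.59). Of 40 interleukin and TNF family genes 8 were higher, among them Il17rd at 1.66, Il1r1 at 1.40, Il13ra1 at 1.24 and Lif at 1.13. The receptor Il5ra at -1.70, Il22ra1 at -1.23 and the antagonist Il1rn at -1.02 were lower, with Il1rn at -0.96 after the GC and length trend was removed. Ptges and Ptgs2, enzymes on the route to prostaglandin E2, were at 1.25 and 1.05. The chemokine Cxcl5 was at 1.10 and the scavenging receptor Ackr3 at 1.16. Interferon genes had 3 of 32 higher, Parp14 at 1.33, Parp12 at 1.13 and Irgm2 at 1.04. None of 17 MHC genes was past 2-fold, a count near the 6.28% of all genes. Of these 9 were above 0, and the median was 0.06. The mast cell and basophil protease Mcpt8 was at 1.53, the granzyme Gzme at 1.09 and the Ly49 family receptor Klra18 at 1.04. These 3 genes were chosen after their values were seen and belong to no list used here. Values of other members of their families are not given, so the 3 do not describe a cell type. Of the leukocyte markers, Cd53 was at 1.42, Foxp3 at 0.10, Mrc1 at -0.06 and the NK marker Eomes at -0.61, and the part of leukocyte RNA was not tested.

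Transcripts of 1 gene could differ more than the groups did: in 292 of the 3598 genes with 2 or more transcripts the extremes were at least 2-fold apart, and the pooled SD between transcripts of a gene was 0.33. Some genes have both a coding (NM) and a non-coding (NR) transcript, the latter often forms with a retained intron or an exon that stops the reading frame. Of 374 such genes the non-coding form was above the coding form in 217, by 2-fold or more in 17 and below by 2-fold in 2, with a median difference of 0.07, which is inside that SD. Snrnp70, the U1 snRNP protein (chromosome 7 from 45376454 to 45395742), had its coding transcript at -1.18 and its non-coding transcripts at 1.48 and 1.44. Srsf7, a serine-arginine splicing factor (chromosome 17 from 80200080 to 80207305), had its coding transcript at -1.79 and its non-coding transcript at 0.78. In Rbmx the coding transcripts were at -0.64 and -1.02 and the non-coding one at 0.69, and in Hnrnpu the values were -0.30 and 0.81. In the fixed list of splicing factors, which holds neither Snrnp70 nor Rbmx, 7 genes had both forms, and the non-coding form was above the coding form in all 7, at a median difference of 0.55. Splicing genes outside the list could go the other way: in Sfpq the coding form was at 0.25 and the non-coding form at -0.20, and in Sart3 and Dhx15 the non-coding form was below the coding form by less than the SD between transcripts. Over the 68 measured genes of the list no gene was past 2-fold and the median was -0.21. Serine-arginine factors are known to limit their own protein by such non-coding forms.

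**Figure D5:**
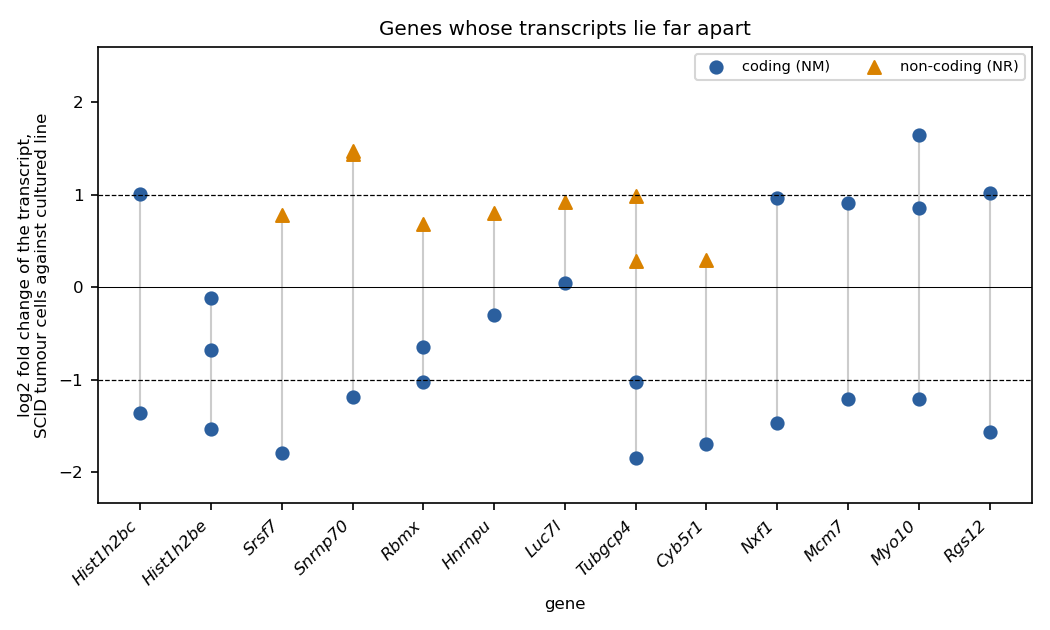
Each point is 1 transcript, placed by its log2 fold change in SCID tumour cells against the cultured line; circles are coding (NM) and triangles non-coding (NR) transcripts, and the grey line joins the transcripts of a gene. In Srsf7 and Snrnp70 the coding transcripts lie at -1.79 and -1.18 and the non-coding ones above 0, and in Hist1h2bc the short and long transcripts lie at -1.35 and 1.01.

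Coding transcripts could also lie on opposite sides. The mRNA export factor Nxf1 (chromosome 19 from 8757103 to 8770910) had NM_016813 at -1.47 and NM_001276704 at 0.96, Rgs12 had values of -1.56 and 1.02, and the 3 transcripts of Myo10 ran from -1.21 to 1.65. The gene means of -0.25, -0.27 and 0.43 hide these differences. How reads were shared between overlapping transcripts is not given in the sources used here. Genes with non-coding transcripts alone were shifted upward: of 611 such genes 5.56% were higher and 1.15% lower (median 0.18), against 3.61% and 2.79% of 10901 genes with coding transcripts alone (median -0.03). Among long non-coding RNAs Neat1, the scaffold of paraspeckles, was at 1.59 and Malat1, of nuclear speckles, at 1.48, both nuclear RNAs. Dleu2 was at 1.08 and Kcnq1ot1 at 1.06, the latter 0.56 after the GC and length trend was removed, and the median over 25 genes of 0.34 became 0.57 after that step and 0.20 among genes with 1 transcript. Genes named Zfp with a number, a list set by symbol and not by protein family, lay slightly above 0 (220 of 324, median 0.15). Only Zfp532 at 1.83, Zfp36, an immediate-early gene, at 1.38 and Zfp704 at 1.01 were past 2-fold. They were 0.93% of the list, against 3.65% of all genes higher. Zfp704 was at 0.75 after the GC and length trend was removed. In the DNA methylation and Polycomb list the dioxygenase Tet2 was at 1.36, Dnmt3a at 0.86, the maintenance factors Dnmt1 and Uhrf1 both at -0.76 and Ezh2 at -0.88.

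The WT tumours were compared with the same line library, so their values are not an independent repeat, and they are given side by side only. Several groups had close values in both: the median of the histone list was -1.60 for SCID and -1.69 for WT, of the mitosis list -1.12 and -1.02, and of the immediate-early list 1.10 and 1.14. The fibrillar collagen Col1a1 was at 2.61 in SCID and 1.90 in WT, Col6a3 at 2.49 and 1.85, Col15a1 at 2.07 and 1.41, Tagln at 1.83 and 1.09 and the membrane protein gene Itm2a at 1.38 and 0.36. Apoe was at 1.02 and 2.77, Cd68 at 0.99 and 2.25, Cd53 at 1.42 and 2.19 and Parp14 at 1.33 and 2.36. The median of the interferon list was 0.31 and 0.67. Differences between the 2 tumour groups rest on 1 library each and were not tested.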

How the data were processed

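RNA was measured by stranded, poly(A)-selected RNA-seq with paired reads of 75 bases at a mean depth of 40 M reads per sample, per the labels' protocols. The depth of each library is unknown, since the deposited table holds no counts. It holds log2 fold changes between single libraries for 17910 RefSeq transcripts (16810 coding, 1100 non-coding). The header names no log base. The submitters' processing notes name DESeq2 1.20.0, which reports log2, and that base was taken; they also name R 3.5.1, Partek, BWA and mm9. Any shrinkage, row filter or read assignment is not given in the sources used here. Coordinates are those of the deposited table with the stop reduced by 1; they match GRCm38 (of 8056 genes compared, the chromosome was shared by 99.9% and the start was within 1000 bases for 89.7%), not the mm9 named in the notes.

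A gene's value is the mean over its transcripts (Python 3.11.15, pandas 2.3.3), called at 2-fold. Left in the count are 16 symbols turned into numbers, as by a spreadsheet, and 8 symbols on 2 or more chromosomes; none is named. Genes were matched by exact symbol to 78 gene lists and 17 marker lists. The comparison, the lists and the rule for named genes were chosen with earlier results of these data known: the 25 highest and 25 lowest genes with a described symbol, in each list the 5 highest and 5 lowest past 2-fold (or the 3 farthest from 0 where fewer than 2 passed), fixed names, and the 6 genes with the widest transcripts. Other named genes were chosen after their values were seen. Motifs were searched in RefSeq promoter windows (GRCm38.p6). GC content and length from GENCODE matched 16747 transcripts (93.5%) and together explained 4.71% of the variance. Alternatives are listed in the closing section. A few genes that fall under the rule are not reported here.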

Additional observations from a re-analysis of the deposited data

Results flagged for a closer look

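H2-K1, a classical MHC class I heavy chain, lay on opposite sides of 0 in the 2 tumour groups, at -0.46 in SCID tumour cells against the line and 0.75 in WT tumour cells against the line. Its 2 transcripts were at -0.67 and -0.24 in SCID, and reads of H2 genes may be shared between near-identical copies. The Y-linked gene Uty was at 0.48 in SCID and -0.47 in WT. It was not alone among sex-linked genes. The list of X-linked and Y-linked dosage genes, 7 measured, had a median of 0.21 in SCID and -0.47 in WT. In SCID 5 of the 7 were above 0 and 2 below. Each value rests on 1 library per group, both comparisons share the line library, and none of these differences was tested.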

How the results depend on the processing

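The counts of 434 higher and 312 lower genes moved with the threshold, to 1311 and 1121 at 1.5-fold and to 16 and 4 at 4-fold. Counting each transcript on its own gave 718 higher (446 lower, within 1.5 times). The median or the farthest transcript of a gene, genes with 1 transcript, coding transcripts, centring on the median gene, removal of the GC and length trend and leaving out marker genes kept both counts within 1.5 times. No named gene past 2-fold changed sign under those of these settings that were run for single genes; the other genes past 2-fold were not followed one by one. Of 629 recomputed list medians 2 moved by more than the spread, both of the fibroblast markers: from 1.12 to 1.61 among genes with 1 transcript and to 0.63 without the farthest member. Of 1850 recomputed values of named genes 41 moved by more than the spread between transcripts. No paired analysis was possible because each group has 1 library. Replicates could not be left out for the same reason. Without counts, depth, low-count noise and scaling could not be examined, and genes absent from the table are not analysed here.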
